A study of Homo sapiens with 8 samples.

Results

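The 10 genes described here are subunits of the transcription factor NF-kappaB, its inhibitors and some of its target genes: TNFAIP3, NFKBIA, NFKBIE, NFKB1, NFKB2, REL, RELA, RELB, BIRC3 and TRAF1. They were taken by name from the 23713 rows of a table of unnormalized FPKM, a level per transcript length and per amount of mapped sequence, and all 10 were found. The group was picked because TNFAIP3 differed between the libraries of letter A and letter B with the wild-type construct, so that difference is given as a description, without a test. RNA was sequenced from NALM6, a human cell line grown from a leukemia of B-cell precursors (B-ALL), with an inducible construct for HMGN1, a nucleosome-binding protein encoded on chromosome 21. The construct carried either wild-type HMGN1 (WT) or the S20,24E mutant, which is deficient in nucleosome binding (SE). Treatment lasted 6 hours, with vehicle alone or with doxycycline (DOX), the inducer, at 100 ng/ml. Each construct with each treatment gave 4 groups of 2 libraries, with 1 library of letter A and 1 of letter B in each. The letters are the biological replicates of the labels. How replicates were kept apart, whether a letter denotes 1 culture, and whether each line is 1 clone are not given in the sources used here. All p-values therefore measure the spread between these libraries, which may be partly technical.

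NF-kappaB is a family of dimers built from RELA, RELB, REL and the processed products of NFKB1 and NFKB2. In resting cells inhibitors of the IkappaB family, such as those encoded by NFKBIA and NFKBIE, hold the dimers in the cytoplasm, and signals that trigger the breakdown of the inhibitors let the dimers enter the nucleus. Several inhibitors are themselves NF-kappaB targets, among them NFKBIA and TNFAIP3, which encodes A20, a ubiquitin-editing enzyme that shuts off signalling upstream. In B-lineage cells the pathway carries signals from antigen and costimulatory receptors, and A20 is known as a tumor suppressor in B-cell lymphoma.

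Promoter sequences of TNFAIP3 and NFKBIA are shown because both are feedback inhibitors of the pathway, and their transcript levels differed to unequal extents between the WT letters. Each is the 250 bases before the transcription start, from RefSeq on GRCh38.p14, 5′ to 3′ on the gene's strand, and capitals mark every match to the kappaB-type motif GGG, any 5 bases, CC on either strand. The TNFAIP3 window lies at chr6:137867009-137867258 on the plus strand and the NFKBIA window at chr14:35404750-35404999 on the minus strand.
TNFAIP3: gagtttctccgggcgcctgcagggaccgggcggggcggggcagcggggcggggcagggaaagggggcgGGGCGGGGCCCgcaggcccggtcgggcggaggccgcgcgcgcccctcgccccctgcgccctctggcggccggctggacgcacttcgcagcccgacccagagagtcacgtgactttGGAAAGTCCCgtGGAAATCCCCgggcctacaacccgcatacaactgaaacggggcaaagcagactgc
NFKBIA: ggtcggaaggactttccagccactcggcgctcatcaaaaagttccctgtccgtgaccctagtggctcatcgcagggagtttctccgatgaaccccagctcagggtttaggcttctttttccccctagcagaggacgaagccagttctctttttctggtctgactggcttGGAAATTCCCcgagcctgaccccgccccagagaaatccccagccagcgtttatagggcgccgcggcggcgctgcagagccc
The TNFAIP3 window held 4 matches, starting 182, 181, 67 and 55 bases before the start, of which the first 2 overlap. The NFKBIA window held 1 match, starting 81 bases before the start. Of the members, 8 had windows in the table, 14 windows in all, and 12 of these held a match. The motif is short and loose: 54.4% of 35116 windows of the same length held at least 1 match, and 9.83% held 4 or more. A match is a description of letters and not a measured binding site.

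Without read counts in the files, the depth is unknown. HMGN1 did not show the induction: vehicle and DOX were at 809.2 and 792.9 FPKM in WT letter A, 796 and 795.3 in WT letter B, 1427 and 1421 in SE letter A, and 1066 and 1061 in SE letter B. This gene thus gives no check of the treatment labels, and DOX below means the libraries labelled so. Of 14 B-lineage markers 14 were above a mean of 1 FPKM, led by IGLL1, a surrogate light chain of the pre-B-cell receptor, at a mean of 877 FPKM. So were 2 of 10 T or NK cell markers, 2 of 10 myeloid markers, 0 of 6 erythroid markers, 1 of 8 stromal or adherent cell markers (VIM, 257 FPKM) and 4 of 6 plasma cell markers, led by XBP1 at 299.9 FPKM. A second deposited table is named as normalized, and the spike-in RNAs added to each sample have nearly equal sums in it (here the spike-in scale). On that scale the median log2 difference over all genes tested was -0.24 for DOX against vehicle in SE, 0.32 and 0.53 for WT against SE in vehicle and DOX, 0.22 for letter A against B in WT and -0.27 in SE, so signs there are read against these shifts. In bulk RNA, fewer cells of a type and less RNA per cell cannot be told apart.

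TNFAIP3 was low in both WT libraries of letter A and high in the other 6 libraries. It held 8.58 FPKM in vehicle and 8.75 in DOX in WT letter A, and 22.9 and 22.4 in WT letter B. In SE it held 24.9 (vehicle) and 24.4 (DOX) in letter A and 23.7 and 23.8 in letter B. The 2 WT letter A libraries thus lay far below a band of 22.4 to 24.9 FPKM that held all the others, with no overlap and with no difference between vehicle and DOX of comparable size. Over the 2 treatments the mean was 8.67 ± 0.122 (SD, n = 2) FPKM in WT letter A and 22.7 ± 0.336 (SD, n = 2) in WT letter B. On the log2(FPKM + 0.1) scale used throughout, the difference of letter A from letter B was -1.41 in vehicle and -1.35 in DOX, a mean of -1.38 that corresponds to a 2.60-fold lower level. On the spike-in scale the mean difference was -1.14, or -1.36 after taking off the shift of all genes.

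**Figure D1:**
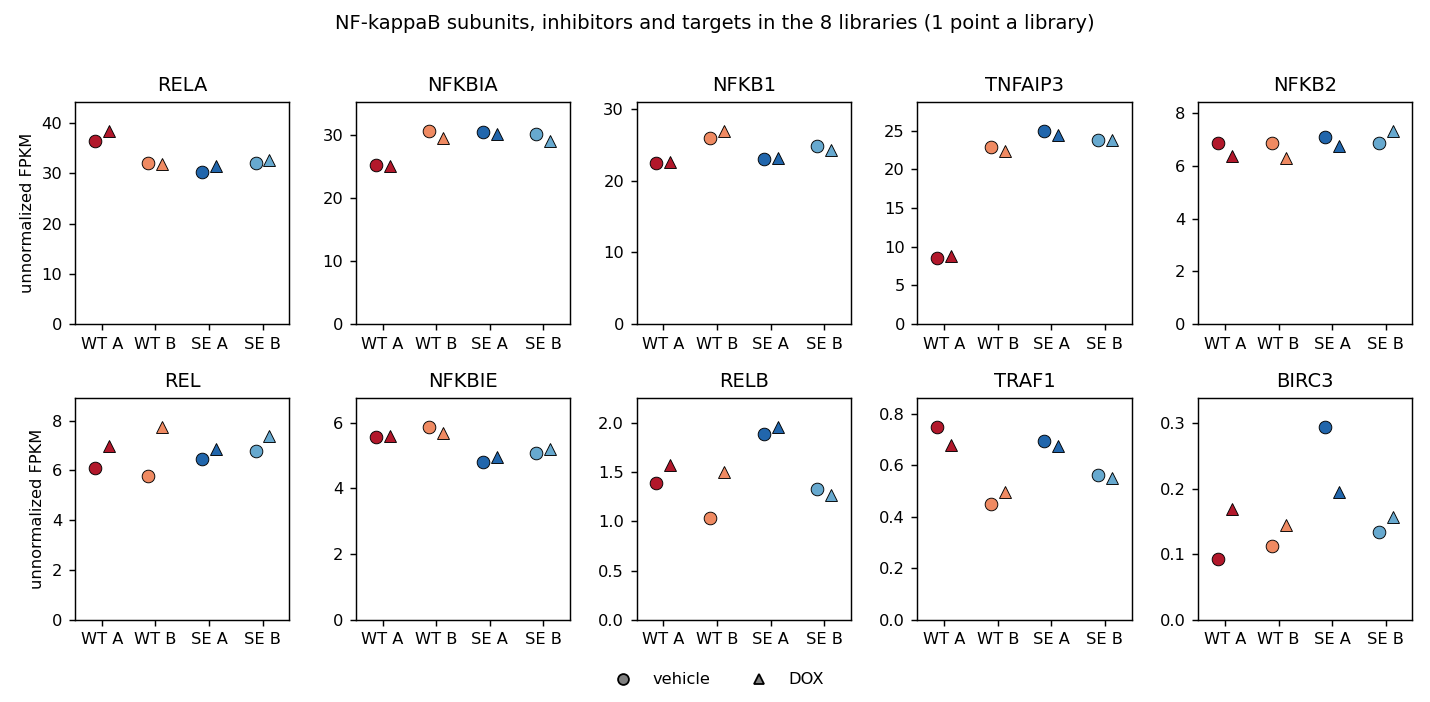
Unnormalized FPKM of the 10 genes in the 8 libraries, 1 point a library, with circles for vehicle and triangles for DOX. Each panel starts at 0 and has its own vertical scale. The TNFAIP3 points of WT letter A, at 8.58 and 8.75 FPKM, stand apart from the 6 others.

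Most genes differed somewhat between the WT letters, so the size of the difference matters more than its presence. Of 11042 genes tested, 75.3% had letter A and B values that did not overlap over the 2 treatments, and 5 of the 8 members tested were among them. A mean difference of at least 0.58 on the log2 scale (1.5-fold) without overlap was found in 3.64% of genes tested, 236 higher and 166 lower in letter A, and in 1 of the 10 members, TNFAIP3. On the spike-in scale, where the median of all genes was 0.22, 760 genes tested met the same rule, 684 higher and 76 lower. TRAF1 (0.71), which was not among the genes tested, met it beside TNFAIP3. After taking off the shift of all genes TRAF1 was at 0.50, under 0.58. A larger difference than that of TNFAIP3 was found in 49 genes tested, and in 100 on the spike-in scale. Since the members were chosen on this contrast, these shares place the values and support nothing.

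The genes beside TNFAIP3 on chromosome 6 were examined after its values had been seen, by their order in the RefSeq annotation. Of the 10 tested protein-coding genes on each side, the next one, HEBP2, which encodes a heme-binding protein, was also lower in WT letter A, with log2 differences of -0.91 in vehicle and -0.67 in DOX. IFNGR1, the interferon-gamma receptor gene on the other side, had a mean difference of 0.06. The 20 neighbours ran from -0.79 to 0.46 with a median of 0.0051, and HEBP2 was the 1 gene of them at -0.58 or below. Smaller differences in the same direction were found in some neighbours, among them NHSL1, the gene after HEBP2 (-0.34), and MYB, a transcription factor gene (-0.38). MAP3K5, a stress kinase gene, was at -0.28. The values of these genes did not overlap between the WT letters, like those of 75.3% of all genes tested. Others were higher in letter A, among them EYA4 (0.46) and AIG1 (0.40).

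**Figure D2:**
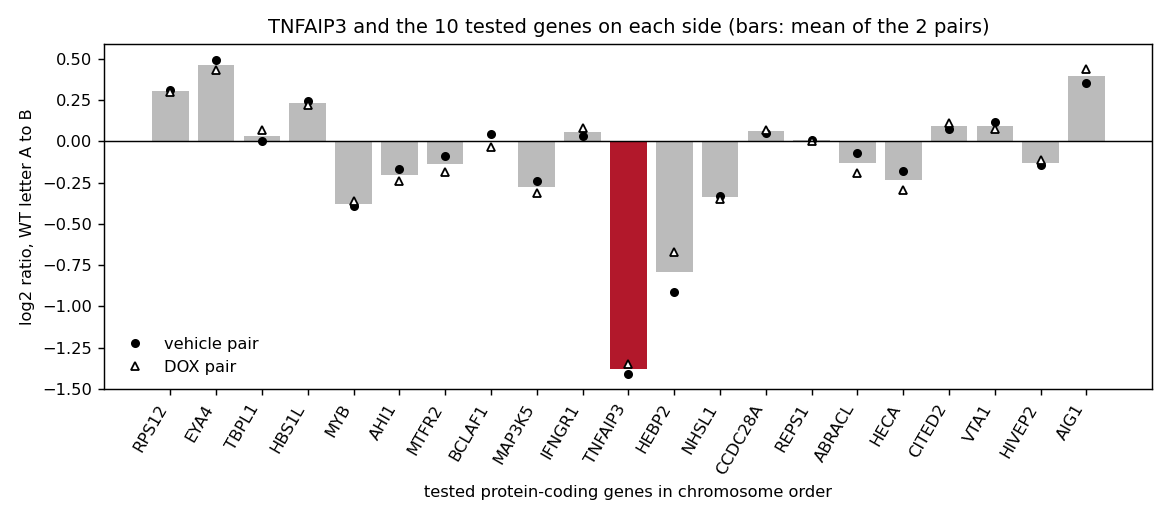
Log2 ratio of WT letter A to letter B for TNFAIP3 (red bar) and the 10 tested protein-coding genes on each side, in chromosome order. Bars give the mean of the vehicle pair (circles) and the DOX pair (triangles). TNFAIP3 and HEBP2 lie below the rest, at -1.38 and -0.79.

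The genes with a pattern most like that of TNFAIP3 were taken by Pearson's r over the 8 libraries, among 1024 tested genes with an SD of at least 0.25 on the log2 scale. The 6 highest were TNFSF4, a ligand of the TNF family (r = 0.997), NPY, the neuropeptide Y gene (0.997), the zinc finger genes ZNF738 (0.996), ZNF43 (0.995) and ZNF788 (0.993), and CIC, a transcriptional repressor (0.993). NPY held 11.5 and 12.3 FPKM in the WT letter A libraries and 47.0 to 64.9 in the other 6. ZNF43 held 0.0431 and 0.0508 in WT letter A and 1.83 to 2.44 in the others. All 6 share the low level in WT letter A. The 8 points are 4 pairs of libraries with like values, so these correlations mainly describe the distance of 1 pair from the other 3.

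Among the other inhibitors, NFKBIA followed TNFAIP3 in direction but not in extent. NFKBIA, which encodes IkappaB-alpha, held 25.1 (vehicle) and 25.1 (DOX) FPKM in WT letter A, 30.6 and 29.5 in WT letter B, 30.4 and 30.1 in SE letter A and 30.1 and 29.0 in SE letter B. The WT letter A libraries were again the lowest, by a mean log2 difference of -0.26 from letter B. On the spike-in scale that difference was -0.03, where the median of all genes was 0.22. Over the 8 libraries NFKBIA and TNFAIP3 had r = 0.980, which again mainly describes the distance of the WT letter A pair from the others. The other genes most like NFKBIA were BCL6B (0.986), the stem and progenitor cell marker CD34 (0.983), SOX7 (0.982), ITGA6, an integrin subunit (0.982), and DDIT4L (0.979). NFKBIE, which encodes IkappaB-epsilon, showed another pattern. It held 5.57 to 5.88 FPKM in the 4 WT libraries and 4.81 to 5.21 in the 4 SE libraries, without overlap between constructs, and the WT letters differed by a log2 difference of -0.05. The share of all genes without overlap between the constructs was not counted, so this is only a description.

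The 5 subunit genes lay at 3 levels. RELA, the main activating subunit, had a mean of 33.2 FPKM and NFKB1, the precursor of p50, 24.2. NFKB2, the precursor of p52, and REL, a subunit prominent in lymphoid cells, were at 6.80 and 6.76, and RELB, the partner of p52 in the noncanonical pathway, at 1.49. By mean level the order of all 10 members was RELA, NFKBIA, NFKB1, TNFAIP3, NFKB2, REL, NFKBIE, RELB, TRAF1 and BIRC3. Ranges over the libraries overlapped between neighbours from RELA to TNFAIP3 and from NFKB2 to NFKBIE, and did not overlap at the steps from TNFAIP3 to NFKB2, NFKBIE to RELB, RELB to TRAF1 and TRAF1 to BIRC3.

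RELA ran opposite to TNFAIP3, at 36.5 (vehicle) and 38.4 (DOX) FPKM in WT letter A against 32.1 and 31.9 in WT letter B, and 30.3 to 32.7 in the 4 SE libraries. Its WT letter A values were the highest of the 8, and r with TNFAIP3 was -0.957 over the 8 libraries. That r, too, mainly describes the distance of the WT letter A pair from the other libraries. NFKB1 held 22.4 and 22.6 FPKM in WT letter A, 26.0 and 26.9 in WT letter B and 23.0 to 24.8 in SE, so that the WT letters formed both ends of its range. NFKB2 varied little, from 6.30 to 7.32 FPKM, and the WT letters differed by a mean log2 difference of 0.0086. RELB was highest in SE letter A, at 1.89 (vehicle) and 1.96 (DOX) FPKM, against 1.33 and 1.26 in SE letter B, 1.39 and 1.57 in WT letter A and 1.04 and 1.503 in WT letter B.

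BIRC3 and TRAF1, targets whose products bind TNF receptor complexes, had means under 1 FPKM and were not tested. BIRC3, which encodes the apoptosis inhibitor cIAP2, held 0.0924 to 0.295 FPKM, the highest value being SE vehicle letter A. TRAF1, an adaptor, held 0.749 (vehicle) and 0.679 (DOX) FPKM in WT letter A against 0.448 and 0.495 in WT letter B, and 0.692 and 0.675 in SE letter A against 0.562 and 0.551 in SE letter B. TRAF1 was thus higher in letter A than in letter B in 4 of 4 pairs on the unnormalized scale. The share of all genes with the same sign in every letter pair was not counted, so this agreement is only a description. In SE on the spike-in scale the letter A value was above that of letter B by less, at 0.723 against 0.635 FPKM in vehicle and 0.597 against 0.564 in DOX. After taking off the shift of all genes, the mean log2 difference in SE was 0.39 on that scale and 0.27 on the unnormalized scale.

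**Figure D3:**
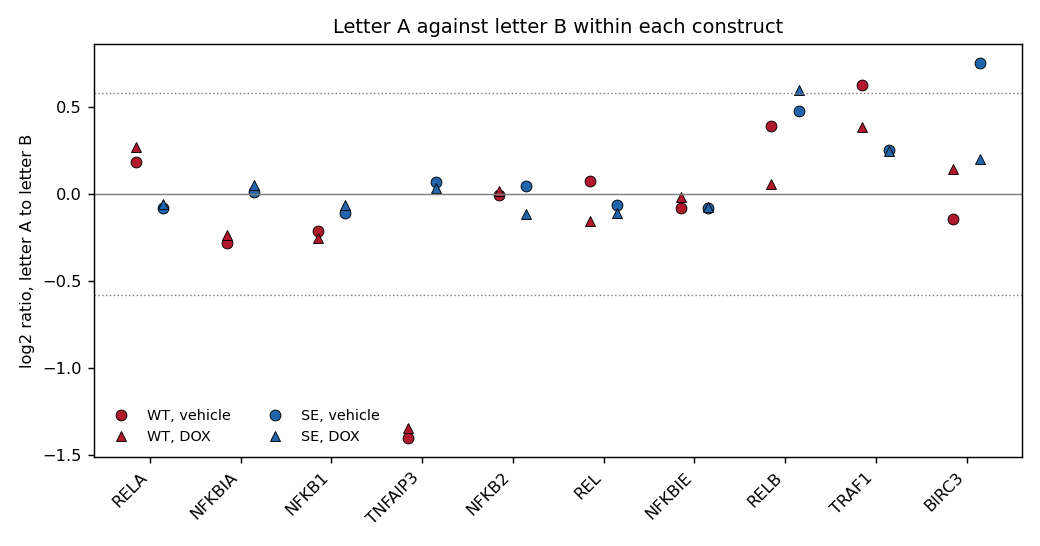
Log2 ratio of letter A to letter B for the 10 genes, in WT (red) and SE (blue), with circles for the vehicle pair and triangles for the DOX pair. Dotted lines mark 0.58 in either direction. TNFAIP3 in WT lies at -1.41 and -1.35, while in SE it lies at 0.07 and 0.03.

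The question of whether DOX changed these genes was tested in each construct, and none of the 8 members tested passed. Models were fitted with limma across all 11042 genes on the means of the 4 groups, calling genes at a Benjamini-Hochberg adjusted p under 0.05. In WT limma called 0 genes, or 0% of those tested, and 13 had an unadjusted p under 0.05. In SE it also called 0 genes (0%), with 12 at an unadjusted p under 0.05. The test of the difference between the constructs called 0 genes (0%), with 9 at an unadjusted p under 0.05. Of the 8 members 4 had positive estimates in WT and 4 in SE, with medians of 0.01 and 0.00038 beside -0.0019 and -0.00068 over all genes. The median half-width of a 95% interval was 0.25 on the log2 scale for the effect in 1 construct. This fit does not pair vehicle and DOX of a letter. Differences between letters thus enter its error, which makes it conservative for DOX, and small effects can be missed. With the letter as a replicate block, limma also called 0 genes for DOX in WT, in SE and for their difference.

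TNFAIP3 itself had a log2 fold change of -0.00081 (standard error 0.52, 95% interval -1.22 to 1.22, limma adjusted p = 1) for DOX in WT. The fit takes the letters as replicates, so their difference enters this interval. Within letters, DOX and vehicle differed in TNFAIP3 by 0.03 in WT letter A and -0.03 in WT letter B, and by -0.03 and 0.0028 in SE letters A and B, on the log2 scale. REL was higher in the DOX library than in the vehicle library of its letter in 4 of 4 pairs. Vehicle and DOX were at 6.11 and 6.97 FPKM in WT letter A, 5.79 and 7.76 in WT letter B, 6.47 and 6.85 in SE letter A and 6.76 and 7.39 in SE letter B. NFKBIA was lower with DOX in 4 of 4 pairs, by less, with log2 differences from -0.0040 to -0.05. The share of all genes with 1 sign in every pair was not counted, so such agreement is only a description. In WT the REL values of vehicle and DOX did not overlap, and the share of all genes without such overlap was not counted either. The log2 fold change of REL in WT was 0.30 (standard error 0.09, 95% interval 0.09 to 0.51, unadjusted p = 0.0114 and adjusted p = 1 in limma). In SE the REL estimate was 0.10 (standard error 0.09, 95% interval -0.11 to 0.31, limma adjusted p = 1.00). On the spike-in scale the SE pairs of REL were at -0.26 (A) and -0.01 (B), above the medians of all genes, -0.35 and -0.13. The WT pairs of REL were at 0.17 (A) and 0.35 (B), beside medians of -0.02 and -0.05. RELB was higher with DOX in both WT pairs, by 0.16 (A) and 0.49 (B), with a fold change of 0.33 (standard error 0.27, limma adjusted p = 1). The remaining members had estimates between -0.11 and 0.04 in both constructs.

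**Figure D4:**
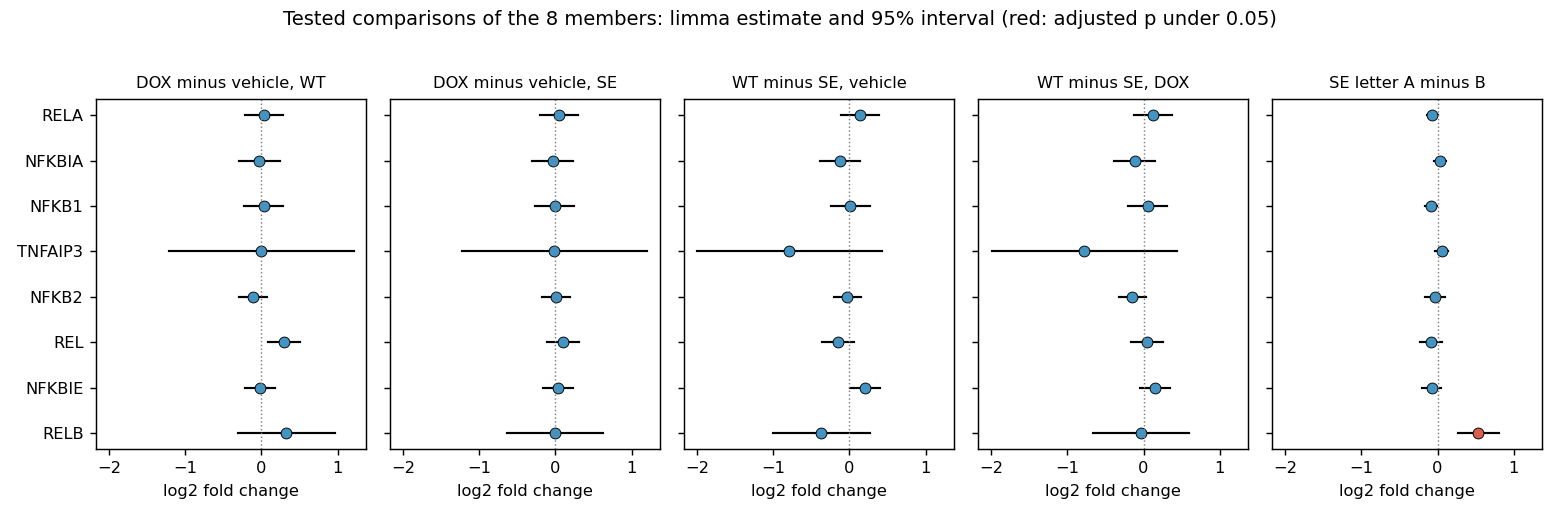
Log2 fold changes of the 8 tested members in 5 comparisons, as limma estimates (points) with 95% intervals (lines), unnormalized scale, with red for adjusted p under 0.05. The intervals of TNFAIP3 in the first 4 panels reach more than 1 unit to a side. RELB in SE letter A against B, at 0.54, is the red point.

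WT and SE libraries were compared to see whether the constructs differed in these genes, and no member passed. In vehicle limma called 10 genes (0.0906% of those tested), 1 higher and 9 lower in WT, and in DOX 8 genes (0.0725%), 1 higher and 7 lower. On the spike-in scale these splits were 48 higher and 14 lower in vehicle, and 3275 higher and 24 lower in DOX. Leaving out single libraries gave 4 to 8 calls in vehicle and 5 to 7 in DOX. TNFAIP3 had a log2 fold change of -0.79 (standard error 0.52, 95% interval -2.01 to 0.43, limma adjusted p = 0.657) in vehicle and -0.78 (-1.99 to 0.44, adjusted p = 0.716) in DOX. The difference between the WT letters, for which TNFAIP3 was picked, enters these estimates and their standard errors. For TNFAIP3 the comparison is therefore a description and not an independent test. Its fold changes rest on the WT libraries of letter A. Without both of them, a setting chosen after the data were seen, they were -0.09 in vehicle and -0.10 in DOX. WT libraries of letter B thus lay close to the SE libraries in TNFAIP3.

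In vehicle 812 of 11042 genes tested had an unadjusted p under 0.05 in limma, and of the members NFKBIE had the lowest p. Its log2 fold change in WT against SE was 0.21 (standard error 0.08, 95% interval 0.01 to 0.40, unadjusted p = 0.0415, adjusted p = 0.654 in limma) in vehicle and 0.15 (-0.05 to 0.35, adjusted p = 0.715) in DOX. RELA had 0.14 and 0.13, NFKBIA -0.12 and -0.12, and RELB -0.37 and -0.03 (adjusted p = 0.677 and 0.971). On the spike-in scale 3 of the 8 members tested passed in DOX, beside 3299 of all 11042 genes tested, 3275 of them higher. These members were NFKBIE (0.66, limma adjusted p = 0.0493), RELA (0.64, adjusted p = 0.0496) and REL (0.56, adjusted p = 0.0493), close to the median of 0.53 for all genes.

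Letters A and B of the SE line were compared because the choice of the members did not use them. The fit took each letter of each construct as a level and allowed a DOX effect per construct, so its p-values measure only the spread of libraries within a letter, with 1 biological replicate on each side. It called 4454 genes (40.3%), 1690 higher and 2764 lower in letter A, and on the spike-in scale 245 higher and 6512 lower. Without SE DOX letter A it called 2571 genes and without SE DOX letter B 2578. Against that background 1 of the 8 members passed, RELB, which was higher in letter A with a log2 fold change of 0.54 (standard error 0.12, 95% interval 0.27 to 0.80, limma adjusted p = 0.00709). RELB lost the call without SE DOX letter A (0.48, adjusted p = 0.082) or without SE DOX letter B (0.48, adjusted p = 0.0756). TNFAIP3 had 0.05 (standard error 0.04, 95% interval -0.03 to 0.14, limma adjusted p = 0.285). HMGN1 itself was higher in SE letter A, by 0.42, and its part in the RELB result was not tested. NFKBIA had 0.03 (-0.04 to 0.11, adjusted p = 0.465) and NFKB1 -0.09 (-0.16 to -0.01, adjusted p = 0.0764).

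Other genes of the pathway, from lists written with earlier results of these data known, gave 0 calls for DOX in either construct, for the difference of the DOX effects and for WT against SE. In SE letter A against B, read beside 40.3% of all genes, 3 of 20 tested kinases and scaffolds passed (1 higher, 2 lower), and 2 of 11 ubiquitin-editing genes (both higher). These were ITCH, a ubiquitin ligase (0.14), and CYLD, a deubiquitinase that limits the pathway (0.18). Of 8 other genes of the IkappaB family and its partners 3 were higher and 2 lower. BCL3, an atypical nuclear IkappaB protein, had a log2 fold change of 1.06 (standard error 0.13, limma adjusted p = 0.000564), NFKBID 0.55 and NFKBIB -0.26. BCL3 held 1.81 and 1.91 FPKM in SE letter A against 0.802 and 0.881 in SE letter B, and 0.687 to 0.944 in the WT libraries. BCL3 thus joined RELB in being highest in SE letter A.

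Of 10 tested receptors 4 were higher and 1 was lower in SE letter A. TNFRSF1B, a TNF receptor, had 0.63 (standard error 0.09, limma adjusted p = 0.000981), TLR4 0.36 and TNFRSF13B, the receptor TACI, -0.56. Of 2 tested ligands 1 was higher, TNFSF13 (0.37), which encodes APRIL. Of 14 other target genes 4 were higher and 3 lower. ICAM1, an adhesion molecule, had 0.68 (standard error 0.07, limma adjusted p = 0.000254), the activation marker CD69 0.70 and IRF4, a lymphoid transcription factor, -0.22. The summed level of the 10 myeloid markers was also higher in letter A, at 4.87 to 6.93 FPKM in the 4 letter A libraries and 3.36 to 3.88 in the 4 of letter B. Most of that sum came from LYZ and CD68, S100A8, S100A9 and FCGR3A were listed at 0 in every library, and the part of such cells in the result was not tested. Of the 14 B-lineage markers 11 passed in SE letter A against B, beside 40.3% of all genes, and they went both ways. The 8 lower included CD22 at -0.66 and IGLL1 at -0.60. The 3 higher were CD79B, CD79A and RAG1, with CD79B at 297 and 272 FPKM in letter A against 213 and 228 in letter B. These markers were named after their values were seen. The part of these marker differences in the results for RELB and the pathway genes was not tested either.

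Between the WT letters, without a test and with genes named after their values were seen, none of the tested kinases, scaffolds or ubiquitin-editing genes differed by 0.58 or more without overlap, and none of the 14 other targets did. Of all genes tested 3.64% met this rule, 236 higher and 166 lower in letter A, and the counts below are read beside that share. NFKBIZ, an inducible nuclear IkappaB gene, was lower in letter A, at 0.986 and 1.04 FPKM against 2.14 and 2.01. Of 10 receptors 4 were higher in letter A, among them TLR10, at 12.4 and 12.2 FPKM against 4.75 and 4.83, TNFRSF13B, at 4.56 and 4.53 against 2.35 and 2.09, and TLR9 and TLR4 with mean log2 differences of 0.99 and 0.71. CD70, a ligand of the TNF family, was higher as well, at 1.47 and 1.75 FPKM against 0.784 and 0.671. Other receptors lay the other way by less, with TNFRSF1B at -0.48 and TNFRSF1A at -0.41, without overlap like 75.3% of all genes tested. Cell type markers differed between the WT letters as well. IGJ, the joining chain gene of the plasma cell list, held 12.6 and 12.5 FPKM in letter A against 2.17 and 2.52 in letter B. The myeloid marker LYZ held 4.62 and 3.96 against 1.56 and 1.68. DNTT, the terminal transferase of B-cell precursors, was lower in letter A, at 129.8 and 129.8 FPKM against 239 and 231, and so was NKG7 of the T or NK cell list (-0.70). DNTT was the 1 of 14 B-lineage markers past 0.58 without overlap, and IGJ the 1 of 4 tested plasma cell markers. Smaller differences within these lists went both ways. In letter A BLNK (0.55) and CD24 (0.27) were higher and RAG1 (-0.56) and EBF1 (-0.36) lower. Of the plasma cell list MZB1 was higher (0.26) and SDC1 lower (-0.29). Whether these differences bear on those of TNFAIP3 and the other pathway genes was not tested. The 5 subunit genes differed by at most 0.23 in size on the mean log2 scale of the unnormalized table, and on the spike-in scale RELA was at 0.45 and RELB at 0.43 beside the median of 0.22.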

How the data were processed

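RNA was sequenced in 8 NALM6 libraries, 2 in each of 4 groups, grouped by the treatment and genotype labels. The authors deposited 2 tables of FPKM (SE below is the mutant construct) with the same 23713 rows, 92 of them spike-ins, 1 table unnormalized and 1 normalized. HISAT and Cufflinks 2.0.0 with hg19 are named, per the submitters' processing notes. How the second table was normalized was not given in the sources used here, spike-in sums are nearly equal in the normalized table, and no value there is 0. Reads of overlapping or near-identical genes can be divided between rows.

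The unnormalized table was the main one, because the members are its rows. Values were analysed as log2(FPKM + 0.1), leaving out spike-ins, 298 rows with small RNA names and genes with a mean under 1 FPKM, which left 11042 genes. Fold changes on this scale understate those of low genes. Moderated models with a variance trend (limma 3.58.1, R 4.3.3) took the 4 group means, and for the SE letters the letter levels with a DOX effect per construct, with Benjamini-Hochberg adjustment. The fits were run on simulated data with independent libraries and no differences between letters. That run does not show how the fits behave with the letter differences of these data. With 2 libraries against 2 an exact permutation test of a single value cannot go below p = 0.333, so none was run.

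The members and gene lists were chosen with earlier results of these data known. Named genes are the members, the genes of smallest p that passed or highest level in each list, the 6 genes most like TNFAIP3 and NFKBIA by Pearson's r, HMGN1, and others said to be named after their values were seen. Alternatives were the normalized table, equal library medians, pseudocounts of 1 and 0.01, no filter or a mean of at least 5 FPKM, small RNA names kept, no trend, a replicate block, only the 2 groups compared, and leaving out libraries. Promoters and gene order are from RefSeq, GRCh38.p14, used for no coordinate of the files. The values of 1 pathway gene are not reported here.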

Additional observations from a re-analysis of the deposited data

How the results depend on the processing

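Of 898 values of members under alternatives, 66 changed sign and none of these was past the threshold in either fit, 8 became calls and 3 lost theirs. The 8 new calls were all on the spike-in normalized scale, 3 for WT against SE in DOX and 5 for SE letter A against B, and 16 of the sign changes were on that scale too. RELB in SE letter A against B lost its call without a filter on low values (adjusted p = 0.0641) and without either SE DOX library. In the spike-in normalized table, among 11042 genes tested, the calls were 1 for DOX in SE and 1 for the difference of DOX effects. For WT against SE they were 62 in vehicle and 3299 in DOX, and for the SE letters 6757. With small RNA names kept they were 5 for DOX in WT, 6 for DOX in SE, 5 for the difference and 20 for WT against SE in vehicle. Without a filter on low values they were 25 and 22 for WT against SE and 2801 for the SE letters, and with a mean of at least 5 FPKM 3 and 2 for WT against SE. Means of the 2 treatments per letter gave 5 for both, and leaving out both WT libraries of letter A gave 4 in DOX, both settings added after the data were seen. Leaving out single libraries gave 4 to 8 calls for WT against SE in vehicle, 5 to 7 in DOX and 2571 to 4733 for the SE letters, the fewest without SE DOX letter A and next without SE DOX letter B (2578). It moved TNFAIP3 for DOX in WT to between -0.70 and 0.70, since the letters are then unbalanced. Why the other counts moved was not tested.

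With the letter as a replicate block, limma called 0 genes for DOX in WT, in SE and for their difference, and 17 and 15 genes for WT against SE in vehicle and DOX. No member's call changed. Deviations from the group means correlated between vehicle and DOX of the same letter (r = 0.757 in WT and 0.720 in SE over genes), but not between constructs (0.06 and -0.01), so letters do not pair WT with SE. With the block, the DOX effect on REL in WT was 0.30 (standard error 0.06, limma adjusted p = 0.741).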

Other observations

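Several genes of the pathway were at very low levels in all 8 libraries and entered no comparison. Of 10 ligand genes 8 were under a mean of 1 FPKM: TNF ran from 0.196 to 0.905 FPKM, LTA from 0.357 to 0.937 and LTB from 0.1502 to 0.505, and TNFSF11 was listed at 0 throughout. The costimulatory receptor CD40 held 0.0133 to 0.117 FPKM and LTBR at most 0.0119. Of 33 other target genes 19 were under a mean of 1 FPKM, and CXCL10, CXCL2, IL6, PTGS2, SELE and VCAM1 were listed at 0 in every library. At the other end SOD2 had a mean of 126 FPKM, IRAK1 61.0, IRF4 51.6, MYD88 40.2, TAX1BP1 32.2 and NFKBIB 31.2. The B-cell survival receptor gene TNFRSF13C, which encodes the BAFF receptor, led the receptors at 18.6.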
